A study of Mus musculus with 2 samples.

Results

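The Serpina3 gene cluster of mouse chromosome 12 codes for serine protease inhibitors related to human alpha-1-antichymotrypsin, and 5 of its genes, Serpina3f, Serpina3g, Serpina3h, Serpina3i and Serpina3n, were followed across the cell classes of 2 libraries of single cells, both from brain of Balb/c mice. The 5 genes were taken by symbol from the 29217 genes of the deposited tables, where 11 symbols begin with Serpina3. They were chosen by their measured UMI levels, which earlier results of these libraries showed to differ between cell classes and libraries, so these levels are given as a description and carry no test. One library is titled as the positive brain and the other as the control brain. Both carry the molecular typing TNBC (triple-negative breast cancer), and the labels name 4T1, a mouse mammary carcinoma line that spreads from the mammary gland. The treatment label runs against the titles, because it places 4T1 metastasis in the library titled control and its absence in the library titled positive. The libraries are therefore called by their titles alone, and no difference below is read as an effect of metastasis. The sources used here do not give age, sex, the number of animals behind a library, or whether tissue was pooled. With 1 library per title there is no replicate, so no difference was tested. The 95% intervals below cover counting error only.

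Serpins are suicide inhibitors: an exposed reactive loop is cut by the target protease, which is then trapped in a covalent complex. Where humans have a single SERPINA3 gene, the mouse carries a tandem array of copies. Serpina3n, the copy studied most in brain, is a secreted acute-phase protein that inhibits granzyme B and leukocyte elastase, and its mRNA is a standard marker of reactive astrocytes and of disease-associated oligodendrocytes. Serpina3g, also called Spi2A, acts inside the cell against lysosomal cathepsins and is induced in activated T cells and macrophages. Serpina3f and Serpina3i are close relatives of Serpina3g, and Serpina3h is annotated as a transcribed pseudogene. Interleukin 6 family cytokines acting through Stat3, glucocorticoids and interferon gamma are textbook inducers of genes of this kind.

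The 5 genes lie on the forward strand of GRCm38 chromosome 12, in the order Serpina3f (chr12:104214544-104221129, 6 exons), Serpina3g (chr12:104236245-104241939, 5 exons), Serpina3h (chr12:104247905-104253669, 4 exons), Serpina3i (chr12:104263122-104269372, 6 exons) and Serpina3n (chr12:104406729-104414329, 5 exons). Serpina3f, g, h and i are near copies, with transcript identities between 88.0% (g and i) and 91.5% (h and i), whereas Serpina3n shared 79.4% (f) to 84.9% (h) with them. Reads could therefore be shared between copies. In the last 500 bases of the annotated transcripts, where a 3′ library reads, 50-base stretches shared with any other gene made up 1.6% for Serpina3f, 2.4% for Serpina3g, 1.3% for Serpina3h, 0.4% for Serpina3i and 0.0% for Serpina3n. No stretch of 90 bases was shared for any of the 5. The annotated Serpina3h transcript has 1239 bases, against 1803 for Serpina3g and 2248 for Serpina3f. Whether it reaches the 3′ end of the RNA was not tested, so its share may not describe the stretch that was read.

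The promoters are shown because a STAT motif was matched in 3 of the genes and missed by 1 base in Serpina3n. RefSeq (GRCm38.p6) gave the 250 bases before the start of 4 of the 5 genes, here for Serpina3f (chr12:104214294-104214543, the first of its start sites), Serpina3g (chr12:104235897-104236146), Serpina3i (chr12:104262872-104263121) and Serpina3n (chr12:104406458-104406707), written 5′ to 3′ on the forward strand with motif matches in capitals.
Serpina3f: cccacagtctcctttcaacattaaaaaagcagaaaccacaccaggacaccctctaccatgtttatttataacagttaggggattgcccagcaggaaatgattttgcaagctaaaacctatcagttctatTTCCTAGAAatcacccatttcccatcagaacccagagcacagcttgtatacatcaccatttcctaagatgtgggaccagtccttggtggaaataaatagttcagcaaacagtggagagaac
Serpina3g: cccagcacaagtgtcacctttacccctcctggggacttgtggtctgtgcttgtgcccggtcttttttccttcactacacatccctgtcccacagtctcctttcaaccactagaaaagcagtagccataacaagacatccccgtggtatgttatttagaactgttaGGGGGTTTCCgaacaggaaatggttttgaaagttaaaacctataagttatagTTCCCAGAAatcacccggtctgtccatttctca
Serpina3i: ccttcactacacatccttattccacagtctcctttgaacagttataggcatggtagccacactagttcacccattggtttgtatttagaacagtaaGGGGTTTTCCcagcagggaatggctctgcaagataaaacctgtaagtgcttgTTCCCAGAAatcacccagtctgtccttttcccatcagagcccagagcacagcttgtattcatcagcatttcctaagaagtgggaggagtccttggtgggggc
Serpina3n: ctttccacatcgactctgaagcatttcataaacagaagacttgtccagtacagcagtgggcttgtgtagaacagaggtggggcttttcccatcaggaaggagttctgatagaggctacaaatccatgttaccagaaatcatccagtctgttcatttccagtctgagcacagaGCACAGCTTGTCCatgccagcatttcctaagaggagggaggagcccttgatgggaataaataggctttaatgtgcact

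The motifs searched on both strands were the gamma-activated site of STAT proteins (TTCNNNGAA), the interferon-stimulated response element (GAAA, 2 free bases, GAAA), the glucocorticoid response element (GNACA, 3 free bases, TGTNC) and the NF-kB motif. TATAAA was searched on the strand of the gene alone. The gamma-activated site was matched by Serpina3f (TTCCTAGAA), Serpina3g and Serpina3i (both TTCCCAGAA), and 7.18% of 27025 RefSeq promoters hold a match. Its first base lay 121 bases before the start in Serpina3f, 33 in Serpina3g and 102 in Serpina3i. Counted from 1 at the first base of the Serpina3i match, the aligned stretch of Serpina3f carries C5T, which leaves the motif in place, and that of Serpina3n carries C3A, which takes it out of the motif (TTACCAGAA, 123 bases before the start). The glucocorticoid response element was matched by Serpina3n alone among the 4 (GCACAGCTTGTCC, from 78 to 66 bases before the start), against 0.381% of all promoters. Counted from 1 at the first base of that match, Serpina3f and Serpina3i carry C12A and C13T in the aligned stretch. NF-kB matches stood in Serpina3g (GGGGGTTTCC, from 85 bases before the start) and Serpina3i (GGGGTTTTCC, from 154), against 3.75% of all promoters. A letter match is a description and not a binding site, and no binding was measured here.

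The library titled positive held 10842 cell barcodes with a median of 7383.5 UMIs (unique molecular identifiers, each marking 1 captured RNA molecule), and the library titled control held 10417 with a median of 4230. After filters on genes, mitochondrial share and doublets, 10537 cells were kept in the titled positive library and 9806 in the titled control library, and 149 barcode sequences occurred in both libraries. The 143 of these kept in each library held 133 of the 13095 titled positive Serpina3n UMIs and 14 of the 543 titled control ones. Cells were clustered without the Serpina3 genes, and a class is called "like" a cell type because it was named from marker genes. The libraries differ in make-up: carcinoma-like cells numbered 5864 in the titled positive library and 2 in the titled control library, and astrocyte-like cells 21 in the titled positive library and 1909 in the titled control library. Levels are given as CPM, the counts of a gene per 1e6 UMIs summed over the cells of a class. For 7 classes with at least 50 cells in each library a ratio between libraries was formed. Most of these classes were held by different clusters in each library, which are named where the results turn on them. Carcinoma markers were present in every class measured in the titled positive library, where their summed level relative to carcinoma-like cells was 38.0% for T cell-like, 43.2% for NK cell-like, 28.1% for endothelial cell-like and 10.5% to 12.7% for the others, and their part in the differences below was not tested.

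Serpina3n was the most counted member in both libraries, with 13095 UMIs in kept cells of the titled positive library and 543 in the titled control library. Titled positive cells held 6472 UMIs of Serpina3g, 374 of Serpina3h, 250 of Serpina3f and 85 of Serpina3i. Titled control cells held 275 of Serpina3g, 34 of Serpina3h, 12 of Serpina3f and 14 of Serpina3i. The members divided between cell classes. Of the titled positive library, 81.6% of Serpina3n UMIs came from oligodendrocyte-like cells, and 71.3% of Serpina3g UMIs from monocyte or macrophage-like cells. Of the titled control library, 40.3% of Serpina3n UMIs were from astrocyte-like cells and 24.7% from ependymal cell-like cells, and 84.4% of Serpina3g UMIs came from endothelial cell-like cells. Endothelial cell-like cells also held 22.2% of Serpina3h UMIs in the titled positive library and 82.4% in the titled control library.

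**Figure D1:**
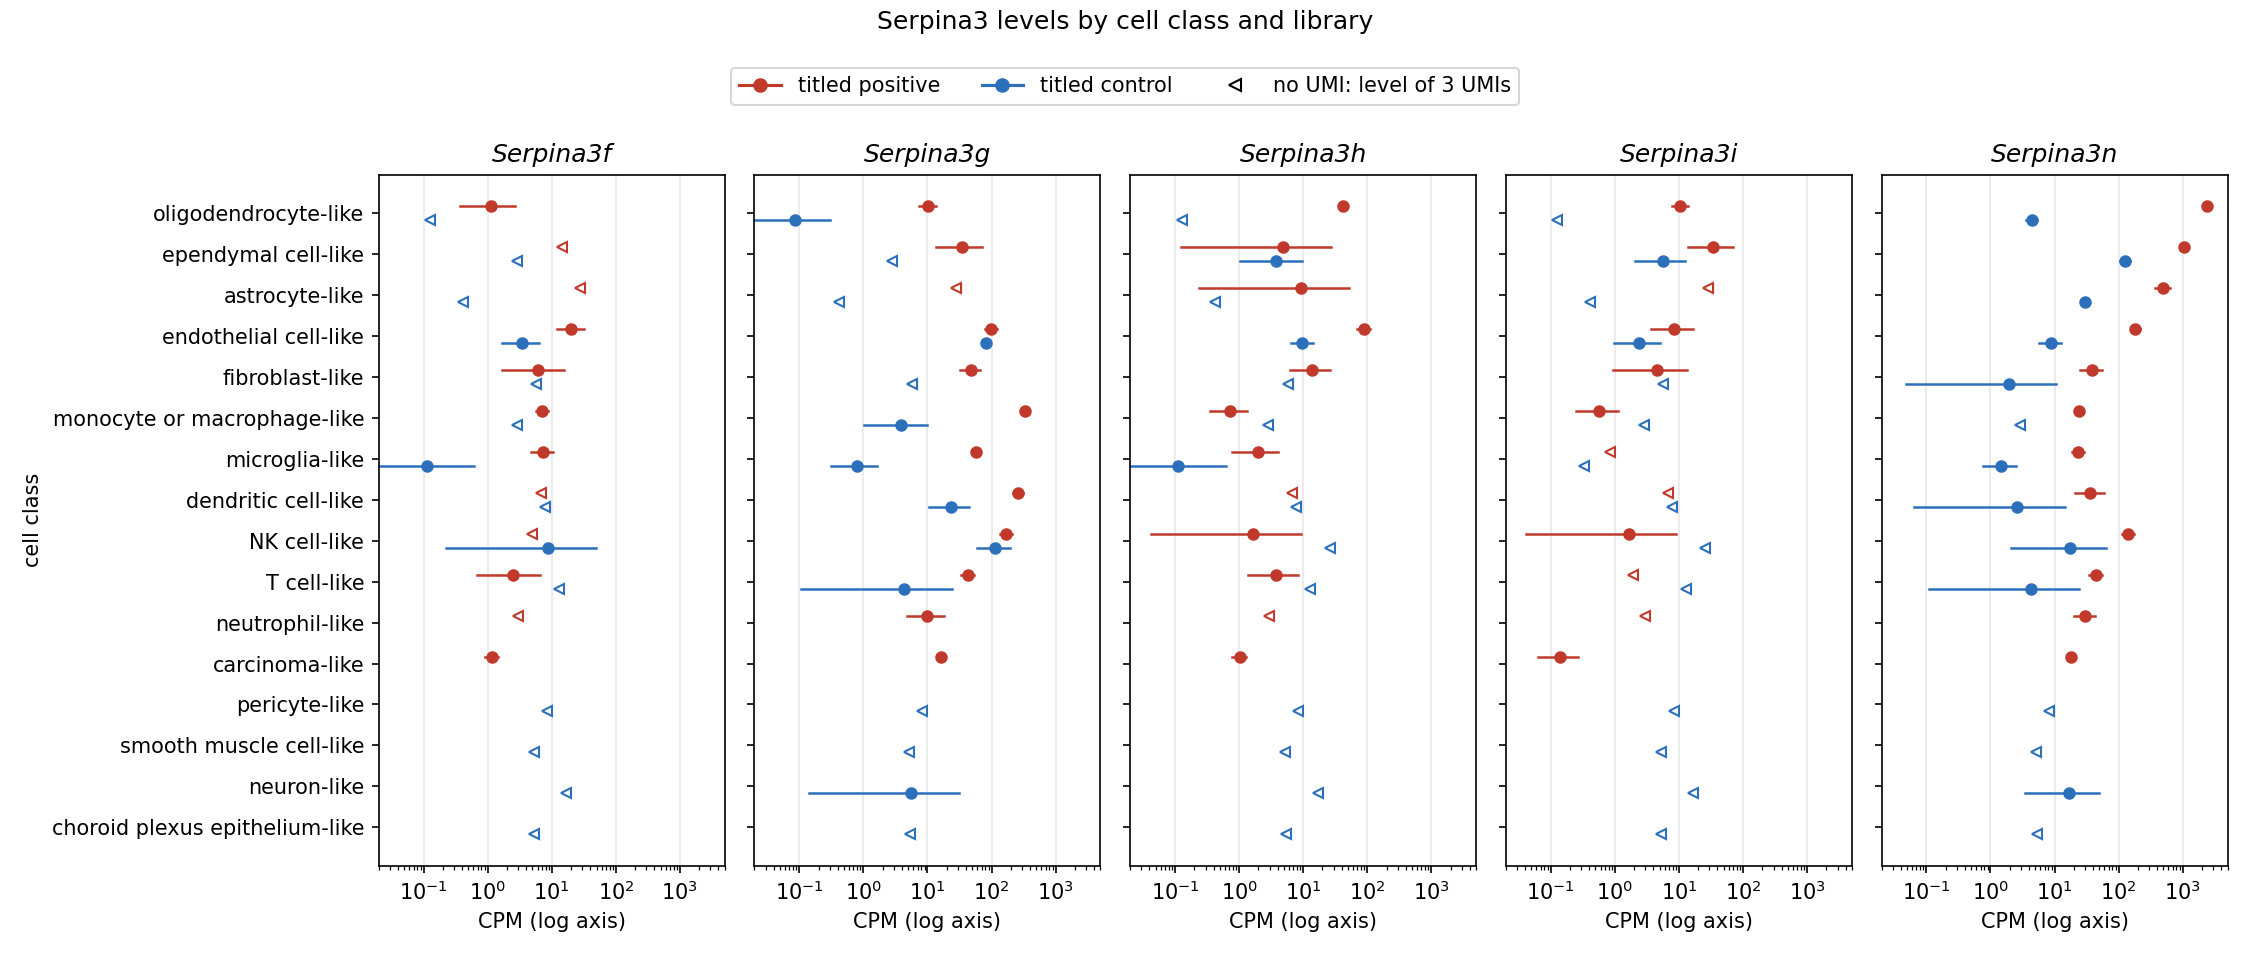
Level of each member in CPM (log axis) by cell class, with the titled positive library above the titled control library in each row, lines for 95% Poisson intervals and open arrows at the level of 3 UMIs where none was counted. Of the classes with at least 20 cells, which are those drawn, Serpina3n is highest in oligodendrocyte-like cells of the titled positive library at 2410 CPM, and Serpina3g in its monocyte or macrophage-like cells at 333 CPM.

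Serpina3n in oligodendrocyte-like cells, named for the glia that wrap axons in myelin, held more UMIs than any other member in any class. It reached 2410 CPM (10682 UMIs, interval 2360 to 2460) in 836 cells of the titled positive library, against 4.43 CPM (105 UMIs, interval 3.62 to 5.36) in 3507 cells of the titled control library. The ratio was 541-fold, or 9.08 on the log2 scale (interval 8.81 to 9.38), where the median over all genes in that class was -0.19. A Serpina3n UMI was found in 84.3% of these cells in the titled positive library (interval 81.7% to 86.7%, median depth 4785 UMIs) and in 2.51% of those in the titled control library (interval 2.02% to 3.08%, median depth 6168 UMIs). The titled positive cells were thus the shallower ones. With every cell thinned to 1000 UMIs the share was 64.6% in the titled positive library and 0.342% in the titled control library. As a gauge of free RNA, monocyte or macrophage-like cells of the titled positive library, at a median depth of 5286 UMIs, had a Serpina3n UMI in 11.9% of cells, or 2.6% after thinning. The titled positive cells formed 1 cluster led by Apod, Klk6 and Ly6a, and Serpina3n itself was among its leading genes. The titled control cells fell into a cluster led by Opalin, Ptgds and Mag and another led by Klk6 and S100b. In the titled control library Serpina3n stood at 8.09 CPM (81 UMIs, interval 6.42 to 10.1) in the Klk6-led cluster of 1185 cells and at 1.75 CPM (24 UMIs, interval 1.12 to 2.61) in the Opalin-led cluster of 2322 cells.

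Single oligodendrocyte-like cells of the titled positive library varied widely. The median was 8 Serpina3n UMIs per cell, the 90th percentile was 30 and the highest cell had 163. A total of 387 cells held 10 or more, and 131 cells (15.7%) held none. The 84 cells with the most UMIs carried 38.6% of the class's Serpina3n UMIs, so the level did not rest on a handful of cells. In the titled control library the highest cell held 4 UMIs, and 3419 of 3507 cells (97.5%) held none.

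**Figure D2:**
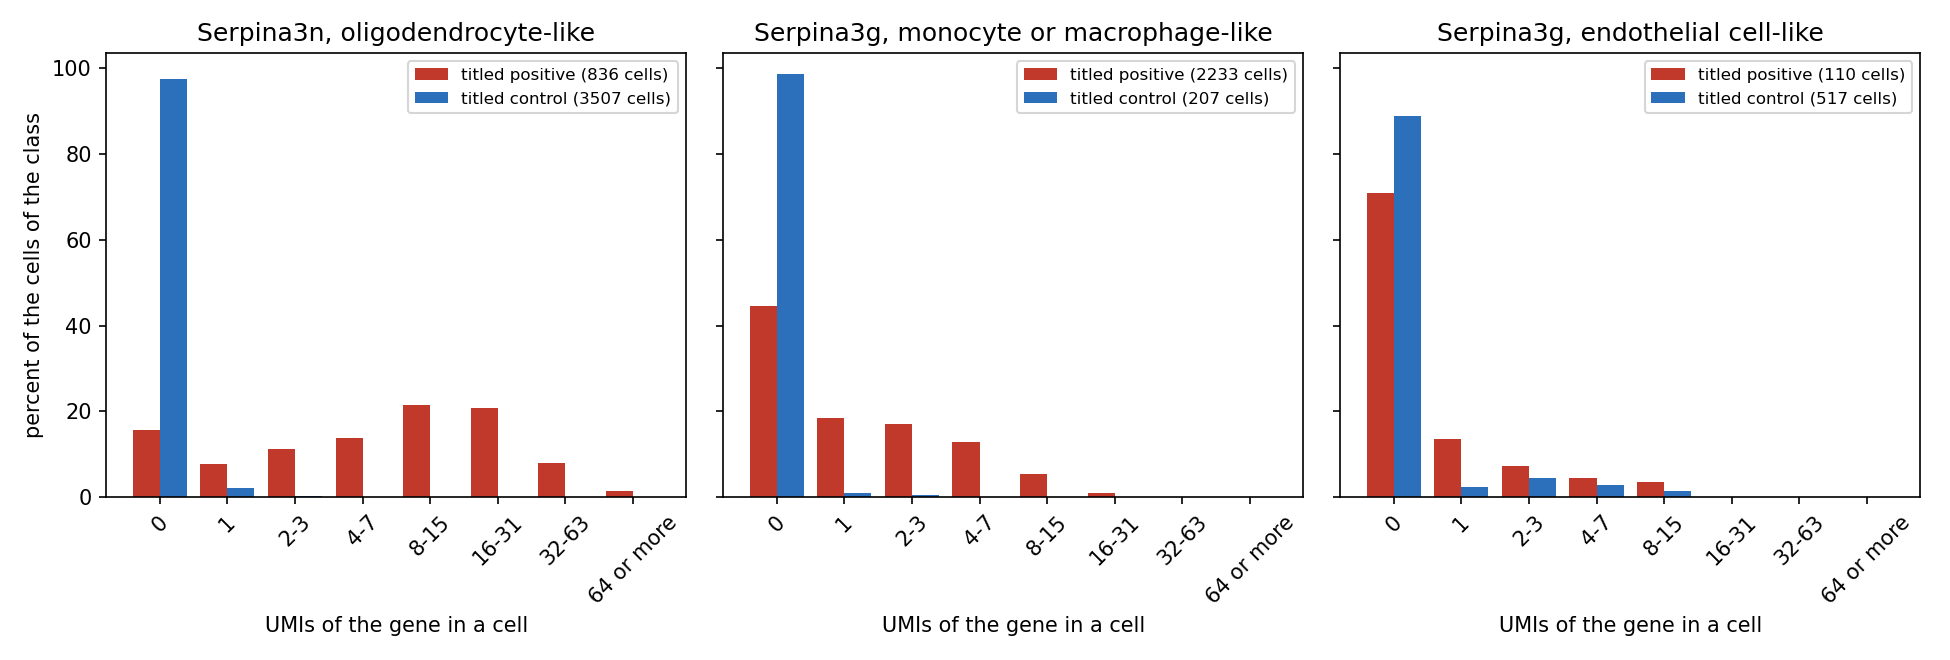
Share of cells (percent) by UMIs per cell for Serpina3n in oligodendrocyte-like cells and for Serpina3g in monocyte or macrophage-like and endothelial cell-like cells, with the titled positive library left of the titled control library in each bin. For Serpina3n 15.7% of the titled positive cells and 97.5% of the titled control cells hold no UMI.

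Within the 836 oligodendrocyte-like cells of the titled positive library, the log-normalised level of Serpina3n went with Klk6 (Pearson r 0.67), a secreted kallikrein protease of oligodendrocytes, Apod (0.53), a lipid carrier, and Hspb1 (0.40), a small heat shock protein. It ran against the myelin genes Cnp (-0.43), Mobp (-0.34) and Mog (-0.32). All of these cells come from 1 library, and the depth per cell correlated with Serpina3n at 0.22. The carcinoma keratins Krt8 and Krt18 stood at -0.09 and -0.07.

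Ependymal cell-like cells, named for the cells that line the ventricles, and astrocyte-like cells held the highest Serpina3n of the classes in the titled control library with at least 20 cells. Ependymal cell-like cells had 1050 CPM (215 UMIs in 38 cells, interval 911 to 1200) in the titled positive library and 127 CPM (134 UMIs in 160 cells, interval 106 to 150) in the titled control library. Both libraries' cells fell into the same cluster. Astrocyte-like cells had 488 CPM (52 UMIs in 21 cells, interval 364 to 640) in the titled positive library and 30.2 CPM (219 UMIs in 1909 cells, interval 26.3 to 34.5) in the titled control library. These classes had too few cells in the titled positive library for a ratio by the limit of 50 cells set here. Astrocyte-like clusters of the titled control library differed among themselves, at 73.2 CPM (110 UMIs, interval 60.1 to 88.2), 24.7 CPM (56 UMIs, interval 18.7 to 32.1) and 15.9 CPM (53 UMIs, interval 11.9 to 20.8), and a cluster of 54 cells had none. In the library titled positive, 4 cells named for choroid plexus epithelium held 68 Serpina3n UMIs (2920 CPM, interval 2270 to 3700), 42 of them in 1 cell, whereas 38 such cells in the library titled control held 0.

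Across the titled positive library the order of Serpina3n levels by class, leaving out classes under 20 cells, was oligodendrocyte, ependymal cell, astrocyte, endothelial cell and NK cell-like. Each stood above the next beyond counting error, except that the interval of endothelial over NK cell-like cells began at 0.00 (log2 0.38, interval 0.00 to 0.78). Below them T cell, fibroblast, dendritic cell, neutrophil, monocyte or macrophage and microglia-like cells ran between 43.7 and 23.3 CPM, and neighbours in that stretch were not separated by their intervals. Carcinoma-like cells were lowest, at 18.3 CPM (1190 UMIs in 5864 cells, interval 17.3 to 19.4). In the NK cell-like class 90.6% of the 85 Serpina3n UMIs sat in 8 of 72 cells, with 47 UMIs in 1 cell.

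Droplets also capture free RNA. As a measure of it, Serpina3n was set beside the oligodendrocyte markers as a share of the level in oligodendrocyte-like cells of the titled positive library. In carcinoma-like cells Serpina3n stood at 0.761% of that level, and the 10 oligodendrocyte markers at a median of 0.696% (range 0.551% to 2.06%). In microglia-like cells the shares were 0.968% for Serpina3n and 0.975% for the markers (range 0.555% to 2.33%), and in monocyte or macrophage-like cells 0.997% and 0.933% (range 0.577% to 2.01%). Serpina3n thus lay within the marker range in these classes. Its level there could not be told apart from free RNA and is not read as expression. A few cells stood out all the same, since 4 of 5864 carcinoma-like cells held 10 or more Serpina3n UMIs and the highest held 52. Serpina3n also lay within the marker range in T cell-like cells (1.81%, range 0.506% to 5.32%), fibroblast-like cells (1.58%, range 0% to 3.69%), dendritic cell-like cells (1.51%, range 0.651% to 3.13%) and neutrophil-like cells (1.23%, range 0.58% to 8.92%), and no ratio of Serpina3n between libraries in any class where it lay within the marker range is read as a difference in expression. In endothelial cell-like cells Serpina3n stood at 7.56%, above the marker range of 0.808% to 1.95%, and in ependymal cell-like cells at 43.4%, above a range of 0% to 12.1%. In NK cell-like cells Serpina3n stood at 5.78%, above a range of 1.38% to 5.09%, with 47 of its 85 UMIs in 1 cell. In astrocyte-like cells it stood at 20.2%, inside a range of 0% to 34.2%, in only 21 cells. In the titled control library, with ependymal cell-like cells as the highest class, Serpina3n stood at 23.8% of their level in astrocyte-like cells, above the ependymal marker range of 0.19% to 5.49%. In oligodendrocyte-like cells of that library it stood at 3.49%, above a marker range of 0.0703% to 2.19%, and in microglia-like cells at 1.14%, above a range of 0.103% to 0.409%. Ependymal markers do not track free RNA from astrocyte-like cells, which held 40.3% of the Serpina3n UMIs of that library. Whether the levels in oligodendrocyte-like and microglia-like cells there exceed free RNA was therefore not tested.

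**Figure D3:**
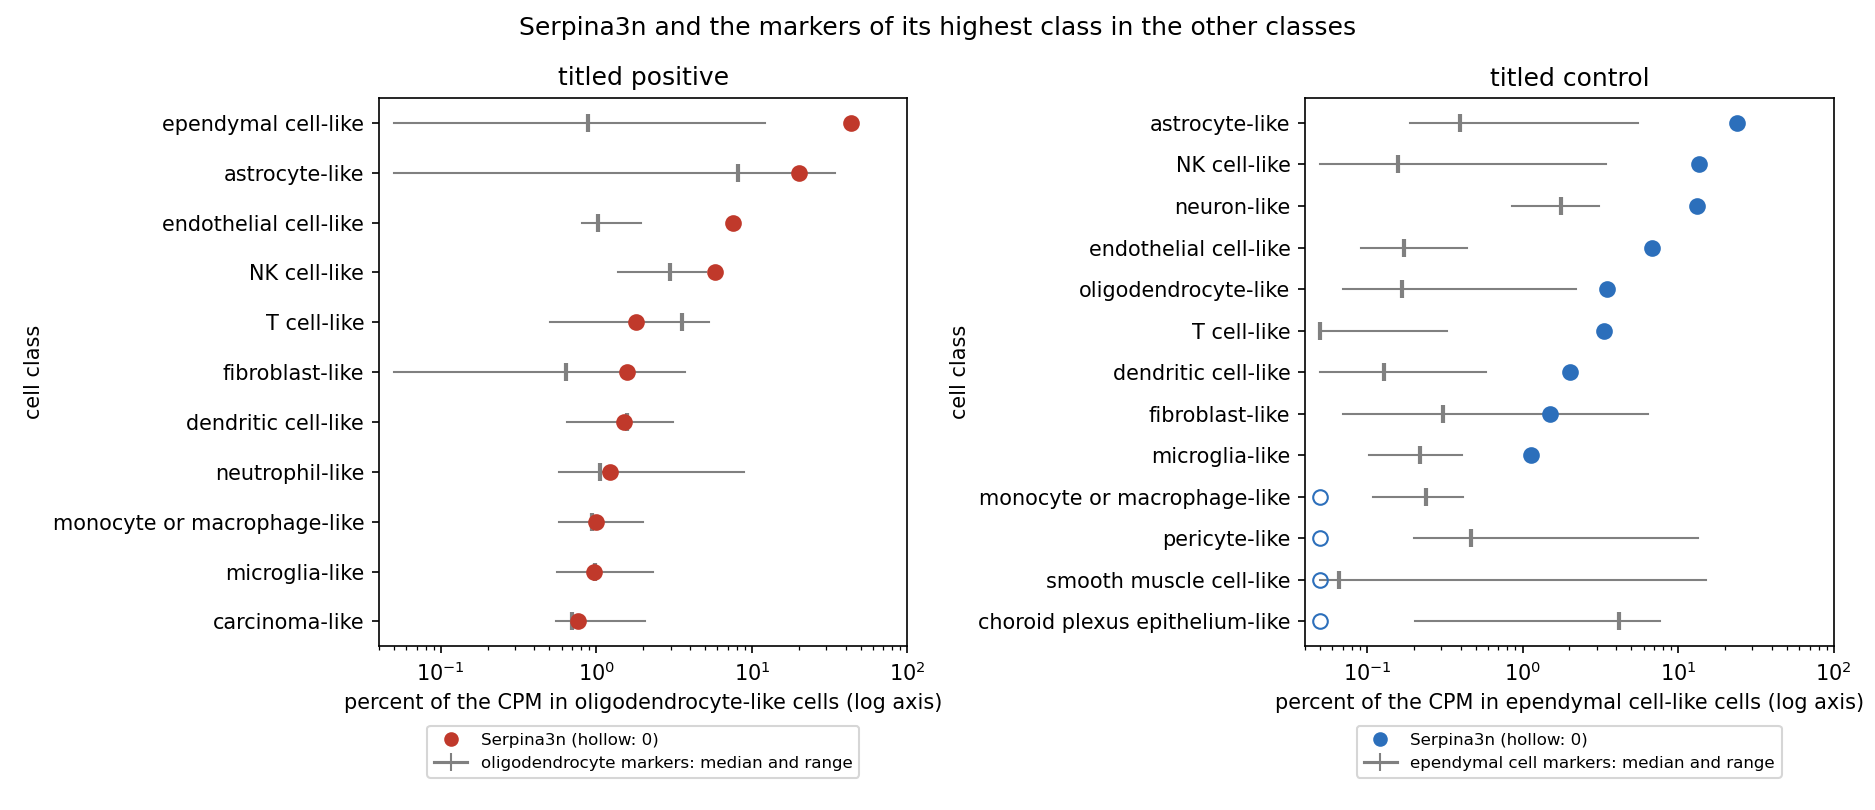
Serpina3n in each class (points) as a percent of its level in the highest class (log axis), beside the median and range of that class's markers (grey), with oligodendrocyte-like cells of the titled positive library as the source on the left and ependymal cell-like cells of the titled control library on the right, where values of 0 are drawn at the left edge. In the titled positive library Serpina3n lies close to the marker median in microglia-like cells (0.968% and 0.975%) and above the marker range in endothelial cell-like cells (7.56%).

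Serpina3g, the intracellular cathepsin inhibitor, was counted mainly in monocyte or macrophage-like cells of the titled positive library. It stood at 333 CPM (4613 UMIs, interval 323 to 342) in 2233 cells there, against 3.83 CPM (4 UMIs, interval 1.04 to 9.81) in 207 cells of the titled control library, a log2 ratio of 6.27 (interval 5.08 to 8.32). A UMI was found in 55.4% of these cells in the titled positive library (22.0% after thinning) and in 1.45% in the titled control library. In oligodendrocyte-like cells of the titled positive library, set beside them as a class without a known role for the gene, the share was 4.43% at a median depth of 4785 UMIs, against 5286 UMIs in the monocyte or macrophage-like cells. The highest cell held 37 UMIs. No cluster of this class was shared by the libraries to any extent: nearly all titled positive cells lay in a cluster led by Arg1, Ccl8 and Saa3, at 373 CPM (64.7% of cells), and one led by Chil3, Arg1 and Il1r2, at 253 CPM (42.8% of cells). All but 8 of the 207 titled control cells lay in 3 other clusters. The difference between libraries therefore compares different clusters of that class.

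Other immune classes of the titled positive library also held Serpina3g. Dendritic cell-like cells had 259 CPM (114 UMIs in 87 cells), against 23.1 CPM in the titled control library, where all 9 UMIs came from 1 cell. NK cell-like cells had 169 CPM (103 UMIs in 72 cells) in the titled positive library and 113 CPM (13 UMIs in 28 cells) in the titled control library. Serpina3g in microglia-like cells had 57.2 CPM (206 UMIs) in the titled positive library and 0.782 CPM (7 UMIs) in the titled control library, a log2 ratio of 6.10 (interval 5.12 to 7.53). Here too the clusters differed, with the main titled positive one led by Ccl12, Saa3 and Hcar2 and the main titled control one by the resting microglia genes P2ry12 and Cx3cr1. As a share of the monocyte or macrophage-like level, Serpina3g in microglia-like cells of the titled positive library stood at 17.2%, inside the range of that class's markers (4.18% to 87.0%, median 11.1%). In dendritic cell-like cells it stood at 77.7%, against a marker median of 12.6% (range 0% to 80.4%), and in endothelial cell-like cells at 29.3%, above a range of 0% to 8.88%. Carcinoma-like cells had 16.3 CPM (1055 UMIs), which was 4.89% of the source level against a marker median of 2.09% (range 1.37% to 7.19%). Astrocyte-like cells had no Serpina3g UMI in 21 cells of the titled positive library and none in 1909 cells of the titled control library.

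Endothelial cell-like cells were the class in which all 5 members were counted in both libraries. Serpina3n stood at 182 CPM (172 UMIs) in the titled positive library and 8.69 CPM (25 UMIs) in the titled control library, a log2 ratio of 4.37 (interval 3.78 to 5.06). A Serpina3n UMI was found in 46.4% of titled positive cells and 3.09% of titled control cells, or 20.9% of titled positive and 0.58% of titled control cells after thinning. Serpina3h stood at 87.9 CPM (83 UMIs) in the titled positive library and 9.73 CPM (28 UMIs) in the titled control library, a log2 ratio of 3.16 (interval 2.54 to 3.85). Serpina3f, with 20.1 CPM in the titled positive library and 3.47 CPM in the titled control library, had a log2 ratio of 2.50 (interval 1.36 to 3.80). Serpina3i, with 8.47 CPM in the titled positive library and 2.43 CPM in the titled control library, had one of 1.79 (interval 0.14 to 3.50). Serpina3g had the lowest ratio, with 97.5 CPM (92 UMIs) in the titled positive library and 80.6 CPM (232 UMIs) in the titled control library, a log2 ratio of 0.28 whose interval of -0.09 to 0.63 includes 0. This value depends on the processing, since the ratio was 1.21 as a mean of per-cell CPM and 1.26 with cells thinned to 1000 UMIs.

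The make-up of that class bears on these ratios. All 110 titled positive cells lay in a cluster led by Ctla2a, Cldn5, Ackr1, Ubd and Lrg1, the venule marker Ackr1 among them, which also held 153 titled control cells. The other 364 titled control cells lay in a cluster led by Gkn3, an arterial gene, and Cldn5. That second cluster held 1 of the 232 Serpina3g UMIs of the titled control class. Within the shared cluster alone, Serpina3g stood at 97.5 CPM in the titled positive library and 160 CPM in the titled control library, a log2 ratio of -0.71 (interval -1.08 to -0.36), with a UMI in 29.1% of titled positive cells and 37.3% of titled control cells, at median depths of 6734 UMIs in titled positive cells and 7768 in titled control cells. In titled positive cells there Serpina3n stood at 182 CPM, Serpina3h at 87.9, Serpina3f at 20.1 and Serpina3i at 8.47, and in titled control cells Serpina3n stood at 15.2 CPM, Serpina3h at 18.0, Serpina3f at 6.93 and Serpina3i at 4.85. The log2 ratios were 3.55 for Serpina3n (interval 2.93 to 4.29), 2.27 for Serpina3h (1.64 to 2.98), 1.51 for Serpina3f (0.36 to 2.81) and 0.79 for Serpina3i (-0.85 to 2.50). So Serpina3g was lower, and Serpina3n, h and f were higher, in titled positive cells of the shared cluster than in titled control cells. This comparison was chosen after the clusters had been seen. Relative to carcinoma-like cells, the summed carcinoma markers of titled positive endothelial cell-like cells were at 28.1% and those of titled control ones at 0.0216%, and their part in these differences was not tested.

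Serpina3h, the transcribed pseudogene, and Serpina3i were the members counted next to Serpina3n in oligodendrocyte-like cells. Serpina3h had 41.7 CPM (185 UMIs, interval 35.9 to 48.2) in 836 cells of the titled positive library and no UMI in 3507 cells of the titled control library, which makes it at least 330-fold higher over a floor of 3 counts. Serpina3i had 10.6 CPM (47 UMIs, interval 7.79 to 14.1) in the titled positive library and no UMI in the titled control library, at least 83.8-fold higher over the same floor. A count of 0 in the titled control library allows up to 0.156 CPM for either gene by the Poisson interval. Within the titled positive library, Serpina3h was nonetheless higher in endothelial cell-like cells than in oligodendrocyte-like cells, at 87.9 and 41.7 CPM (log2 1.08, interval 0.68 to 1.46). A Serpina3h UMI was found in 34.5% of endothelial cell-like cells and in 12.1% of oligodendrocyte-like cells of that library, against 0.403% of its monocyte or macrophage-like cells, at median depths of 6734, 4785 and 5286 UMIs. After thinning the shares were 8.18%, 4.07% and 0.134%. Of the classes with at least 20 cells, Serpina3i was highest in ependymal cell-like cells, at 34.1 CPM (7 UMIs in 38 cells, interval 13.7 to 70.2) in the titled positive library and 5.69 CPM (6 UMIs in 160 cells, interval 2.09 to 12.4) in the titled control library, a few counts in each case.

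Serpina3h and Serpina3i were found in oligodendrocyte-like cells that also held Serpina3n. All 101 titled positive cells with a Serpina3h UMI also held Serpina3n, against 82.2% of cells without one, and their mean Serpina3n count was 32.5 UMIs against 10.1 in cells without. Cells with Serpina3h were deeper, with a median of 6211 UMIs against 4599. All 37 cells with a Serpina3i UMI held Serpina3n too, with a mean of 34.6 UMIs against 11.8 in cells without, at median depths of 5833 UMIs in cells with Serpina3i and 4758 in cells without. Serpina3h and Serpina3i were found together in 13 cells, out of 101 with Serpina3h and 37 with Serpina3i. Holding Serpina3n was not particular to cells with these members. Serpina3n was also held by 136 of 137 cells with Serpina3m, all 18 with Serpina3c and all 10 with Serpina3e-ps. Of 37 cells with Serpina3g, 29 held it. Counts of Serpina3h did not stand in a fixed proportion to Serpina3n across classes: per 100 Serpina3n UMIs there were 1.73 Serpina3h UMIs in oligodendrocyte-like cells of the titled positive library (interval 1.49 to 2.0), 48.3 in its endothelial cell-like cells (38.4 to 59.8) and 112 in endothelial cell-like cells of the titled control library (74.4 to 162). In oligodendrocyte-like cells of the titled positive library Serpina3m stood at 1.88 per 100 (1.63 to 2.16). These proportions are not corrected for transcript length and compare classes only. Whether UMIs of the other copies in oligodendrocyte-like cells came from Serpina3n RNA was not tested.

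Of 250 Serpina3f UMIs in the titled positive library, 98 came from monocyte or macrophage-like cells, 75 from carcinoma-like cells, 26 from microglia-like cells, 19 from endothelial cell-like cells and 5 from oligodendrocyte-like cells. In that library it stood at 20.1 CPM (19 UMIs, interval 12.1 to 31.4) in endothelial cell-like cells, 7.22 CPM (26 UMIs) in microglia-like cells, 7.07 CPM (98 UMIs) in monocyte or macrophage-like cells and 1.16 CPM (75 UMIs) in the 5864 carcinoma-like cells. Titled control cells held 10 UMIs in endothelial cell-like cells, 1 in microglia-like cells and 0 in monocyte or macrophage-like cells. The microglia-like and monocyte or macrophage-like levels of the titled positive library were not separated (log2 0.05), and the endothelial cell-like level lay above them (log2 1.49 over microglia-like cells, interval 0.55 to 2.39). Among monocyte or macrophage-like cells of the titled positive library with a Serpina3f UMI, 69 of 86 (80.2%) also held Serpina3g, against 54.4% of cells without one. The median depth was 6576.5 UMIs in cells with Serpina3f and 5232 in cells without. In its endothelial cell-like cells 83.3% of 12 cells with Serpina3f held Serpina3g, against 22.4% of the rest, but those 12 cells had a median of 12747 UMIs against 6251.

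**Figure D4:**
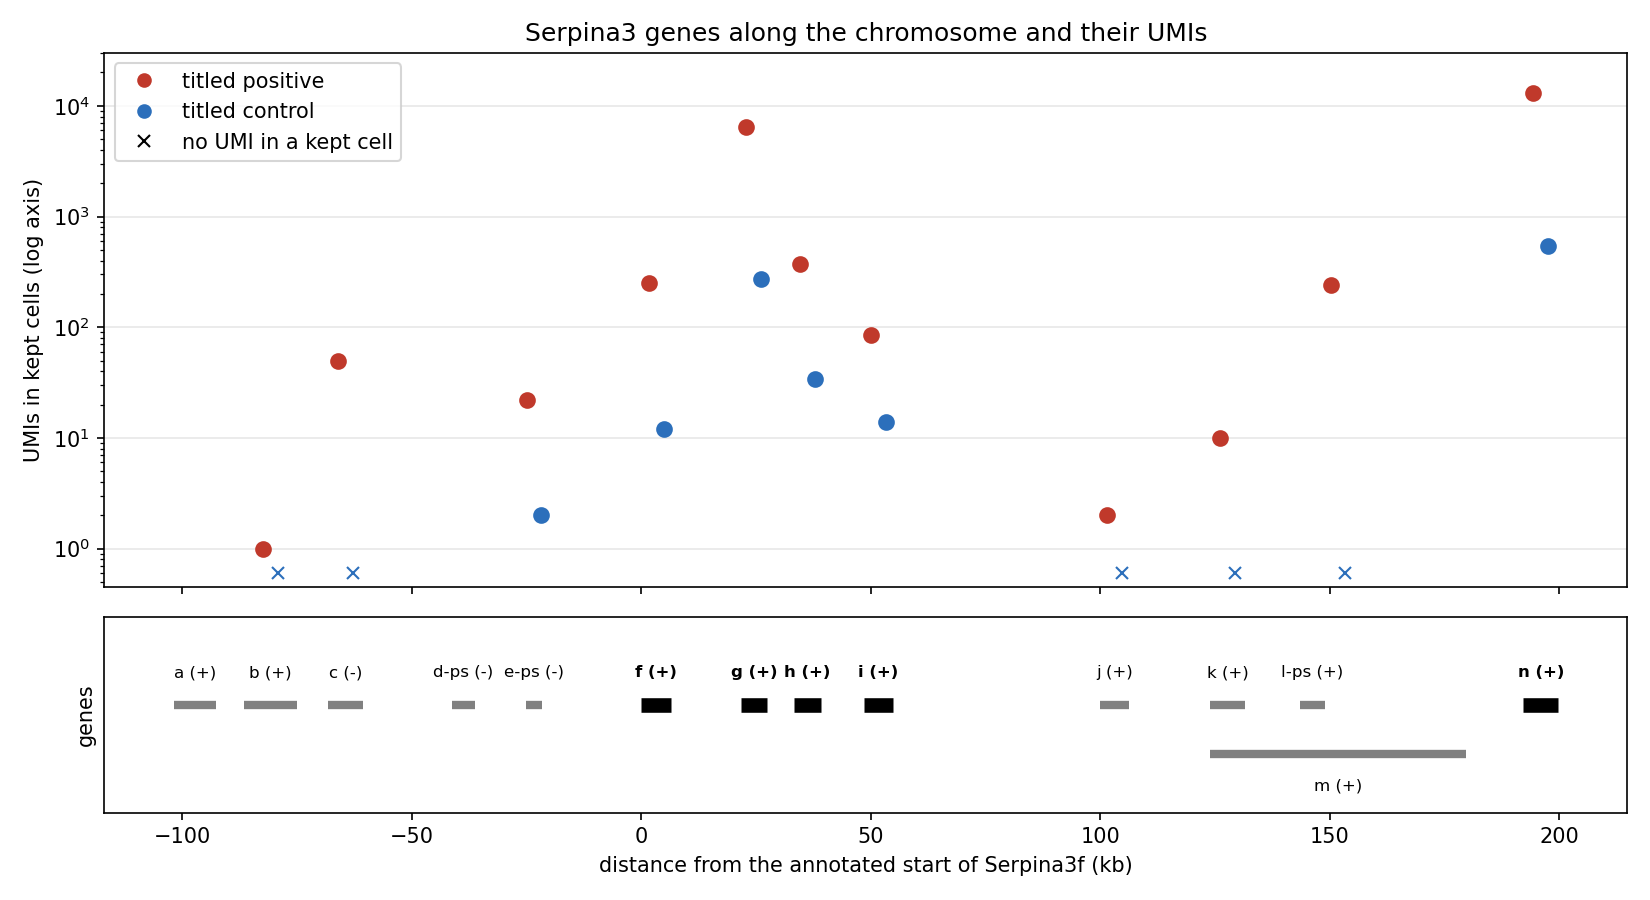
Serpina3 genes to scale along GRCm38 chromosome 12 by distance from the start of Serpina3f (kb), each labelled by letter and strand with members in bold, below the UMIs of each gene in kept cells (log axis) of the titled positive library (left point) and the titled control library (right point). Serpina3n has 13095 UMIs in the titled positive library and 543 in the titled control library, and crosses mark genes with none.

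Among the other genes of the array, Serpina3m had 255 UMIs over all barcodes of the titled positive library and 0 in the titled control library, with 45.3 CPM (201 UMIs) in oligodendrocyte-like cells of the titled positive library. Serpina3c had 52 UMIs in the titled positive library and 1 in the titled control library. The remaining 4 had 1 to 28 UMIs in the titled positive library and 0 to 4 in the titled control library. Within 500 kb outside the array, Serpina1b, an alpha-1-antitrypsin gene, had 215 UMIs in the titled positive library and 295 in the titled control library, summed over the classes with at least 50 cells in that library. Clmn, a calponin-like membrane protein, had 28.6 CPM in oligodendrocyte-like cells of the titled positive library and 95.4 CPM in those of the titled control library. Dicer1, the microRNA-processing nuclease, had 18.3 CPM in oligodendrocyte-like cells of the titled positive library and 14.7 CPM in those of the titled control library.

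Over the 7 classes compared, 22 pairs of member and class had at least 10 UMIs, 19 of which were at least 4-fold higher in the titled positive library, with 0.5 counts added to each sum, and 0 at least 4-fold lower. One of the 19, Serpina3f in monocyte or macrophage-like cells (98 UMIs in the titled positive library and 0 in the titled control library), was at least 2.46-fold higher over the floor of 3 counts, so its place among them rests on the added 0.5 counts. The members had been chosen with these ratios in view, so nothing is read from the counts. In oligodendrocyte-like cells 4 of 4 members were at least 4-fold higher, where 9.99% of all genes were. The counts were 3 of 4 in monocyte or macrophage-like cells (5.15% of all genes), 3 of 3 in microglia-like cells (5.34%) and 3 of 5 in endothelial cell-like cells (5.58%). In T cell-like cells (9.67%), dendritic cell-like cells (5.99%) and fibroblast-like cells (7.48%) the counts were 2 of 2. Serpina3n counts among the members in all 7 classes and Serpina3g in all but endothelial cell-like cells, also where their titled positive level lay inside the range of the source class's markers. No member tested was at least 4-fold lower, where the share of all genes lower by that much was 6.67% in oligodendrocyte-like, 8.56% in monocyte or macrophage-like, 11.4% in microglia-like, 6.13% in endothelial cell-like, 3.11% in T cell-like, 3.5% in dendritic cell-like and 7.48% in fibroblast-like cells. Of the dendritic cell-like cells, 85 titled positive and 2 titled control ones shared the main titled positive cluster, and 44 of 72 titled positive fibroblast-like cells lay in a cluster with no titled control cell. In T cell-like and fibroblast-like cells the ratios rest on 1 titled control UMI or none: Serpina3n had 69 UMIs in the titled positive library and 1 in the titled control library in T cell-like cells (log2 2.78, interval 0.83 to 8.68), and 25 in the titled positive library and 1 in the titled control library in fibroblast-like cells (log2 3.75, interval 1.70 to 9.67). The same limit holds for Serpina3n in dendritic cell-like cells (16 titled positive UMIs and 1 titled control UMI) and in monocyte or macrophage-like cells (333 and 0). It also holds for Serpina3f in microglia-like cells (26 and 1) and in monocyte or macrophage-like cells (98 and 0), and for Serpina3h and Serpina3i in oligodendrocyte-like cells (185 and 0, 47 and 0).

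**Figure D5:**
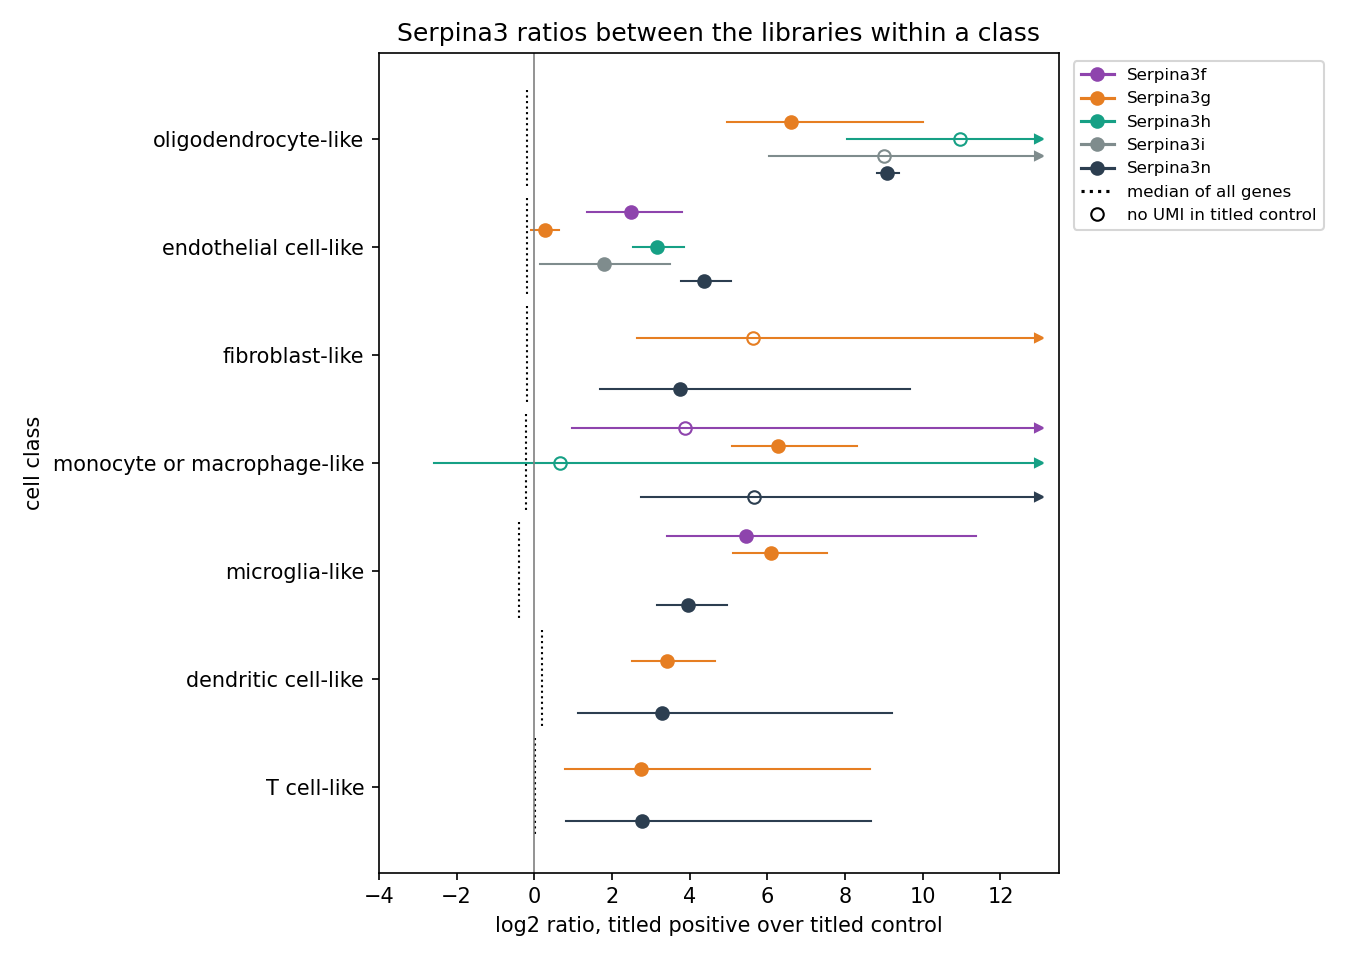
Log2 ratio of the titled positive over the titled control library for each member in the 7 classes compared, with 95% counting intervals and a mark for the median over all genes of the class. Open points have no titled control UMI and depend on the pseudocount, Serpina3n in oligodendrocyte-like cells lies at 9.08, and the interval of Serpina3g in endothelial cell-like cells (-0.09 to 0.63) includes 0.

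Genes of the pathways that are known to induce the cluster were then read in oligodendrocyte-like cells, from lists chosen with earlier results known. Of 19 interferon gamma pathway genes with enough UMIs, 17 were at least 4-fold higher in the titled positive library (9.99% of all genes were) and 0 at least 4-fold lower (6.67% of all genes were), with a median log2 ratio of 6.56 against -0.19 over all genes. Irf1, a transcription factor of that pathway, had 183 CPM in the titled positive library and 1.52 CPM in the titled control library. The immunity-related GTPase Igtp had 1620 CPM in the titled positive library and 2.53 CPM in the titled control library. The receptor chain Ifngr1 was nearly level, at 24.8 CPM in the titled positive library and 27.0 CPM in the titled control library. Of the classes of the titled positive library, Irf1 was highest in microglia-like cells (430 CPM) and Igtp in oligodendrocyte-like cells. The part of free RNA in the count of the interferon gamma list was not tested.

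Of 19 genes of interleukin 6, interleukin 1, TNF and glucocorticoid signalling, 9 were at least 4-fold higher in oligodendrocyte-like cells of the titled positive library (9.99% of all genes were). There 0 were at least 4-fold lower (6.67% of all genes were), the median ratio being 1.99 on the log2 scale. In the titled positive library Socs3, the feedback inhibitor of interleukin 6 signalling, had 122 CPM, the acute-phase factor Cebpd 74.0 CPM and Stat3 131 CPM. In the titled control library Socs3 had 6.96 CPM, Cebpd 5.53 CPM and Stat3 39.0 CPM. The shared receptor chain Il6st had 40.4 CPM in the titled positive library and 43.1 CPM in the titled control library. The glucocorticoid receptor Nr3c1 was lower, at 91.1 CPM in the titled positive library and 152 CPM in the titled control library. Of the classes of the titled positive library, Il1b was highest in monocyte or macrophage-like cells (1740 CPM) and Nr3c1 in oligodendrocyte-like cells. The part of free RNA in the count of this signalling list was not tested.

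Other genes that are known to accompany Serpina3n in reactive glia were also read there. Of 9 disease-associated oligodendrocyte genes 7 were at least 4-fold higher in oligodendrocyte-like cells of the titled positive library and 0 at least 4-fold lower, the median log2 ratio being 4.47, where 9.99% of all genes were higher and 6.67% lower by that much. Among them C4b, a complement component, had 368 CPM in the titled positive library and 3.59 CPM in the titled control library. Of 21 reactive astrocyte genes 16 were at least 4-fold higher and 1 at least 4-fold lower, with a median of 4.41. Some genes of that list were highest in other classes of the titled positive library, such as Lcn2 in neutrophil-like cells (17200 CPM) and S100a10 in carcinoma-like cells (2090 CPM). Others, such as Psmb8 (2270 CPM) and H2-T23 (2000 CPM), were highest in oligodendrocyte-like cells. Among the disease-associated genes, Cd74 was highest in dendritic cell-like cells (26000 CPM) and Klk6 in oligodendrocyte-like cells (4770 CPM) of the titled positive library. The part of free RNA in the counts of the disease-associated and reactive astrocyte lists was not tested. Of 11 serpins outside the cluster, 1 was at least 4-fold higher and 2 at least 4-fold lower, with a median of 1.12, and the share that was higher is close to that of all genes. Serping1, the C1 inhibitor, had 245 CPM in the titled positive library and 1.31 CPM in the titled control library. Serpinb1a, an inhibitor of neutrophil proteases, had 52.3 CPM in the titled positive library and 962 CPM in the titled control library. Some genes, such as Osmr and Serping1, stand on more than 1 of these lists.

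In monocyte or macrophage-like cells 7 of 20 interferon gamma pathway genes were at least 4-fold higher in the titled positive library (5.15% of all genes were) and 0 at least 4-fold lower (8.56% of all genes were), at a median log2 ratio of 1.30. Of 20 genes of the interleukin 6 list 3 were at least 4-fold higher (5.15% of all genes were) and 1 at least 4-fold lower, and 10 had a ratio above 0 of any size, with a median of 0.21. Oncostatin M (Osm), an interleukin 6 family cytokine, had 234 CPM there in the titled positive library and 13.4 CPM in the titled control library. In endothelial cell-like cells 6 of 19 interferon gamma pathway genes were at least 4-fold higher (5.58% of all genes were) and 0 at least 4-fold lower (6.13% of all genes were), with a median of 1.33. The chemokine Cxcl9 had 204 CPM there in the titled positive library and 0.347 CPM in the titled control library, and Nr3c1 had 58.3 CPM in the titled positive library and 244 CPM in the titled control library. Whether these lists differ between classes was not tested, nor was the part of free RNA in their counts.

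The proteases that these inhibitors are known to act on were highest in other classes of the titled positive library than Serpina3n and Serpina3g. Leukocyte elastase (Elane), proteinase 3 (Prtn3), cathepsin G (Ctsg) and Mmp9 were highest in neutrophil-like cells, at 1000, 1040, 412 and 374 CPM. Mmp9 was among the markers that named that class, so nothing is read from its place there. Granzyme B (Gzmb) was highest in T cell-like cells, at 1520 CPM, with 1280 CPM in NK cell-like cells. The lysosomal cathepsins Ctsb and Ctsh were highest in microglia-like cells, at 3200 and 1000 CPM, and Ctsl in carcinoma-like cells, at 3250 CPM. Where Serpina3g was mainly counted, in monocyte or macrophage-like cells, Ctsl had 1960 CPM in the titled positive library and 574 CPM in the titled control library.

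By the rule that names the 5 genes whose log2 level was most like a member's over 21 pairs of class and library, Serpina3n was closest to Dnah14 (Pearson r 0.808), Ddit4, Ly6a, Clca3a1 and Shf, and Serpina3h to Clca3a1 (0.782), Cadps2, Scgb3a1, Ly6a and 2310002F09Rik. Serpina3g was closest to Gm48780 (0.89), Ptgs2, Nr4a2, Nos2 and AW112010, and Serpina3f to Olfr56 (0.855), Wars, Cxcl11, Gm20412 and Gbp4. Between members the correlation was highest for Serpina3h and Serpina3i (0.902) and lowest for Serpina3g and Serpina3i (0.254). The pairs share libraries, depth and free RNA, and Serpina3i, with 99 UMIs in all kept cells, was too rare for the rule.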

How the data were processed

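Single cells of brain tissue, 1 library per title, were captured on a Singleron GEXSCOPE chip, per the labels' protocols. The authors deposited raw UMI counts per gene and barcode, made with Cell Ranger on GRCm38, per the submitters' processing notes, which give no version. Members and gene lists were chosen with earlier results of these data known. The cell filter asked for 200 or more genes and no more than 20% of UMIs from mitochondrial genes (5 left out in the titled positive library, 11 in the titled control library), and Scrublet marked 300 and 600 barcodes as doublets (2.77% and 5.77%), which were removed. Scanpy 1.11.5 (10000 counts per cell, 2000 variable genes, 30 components, 15 neighbours, leidenalg 0.10.2, resolution 1) clustered both libraries together, with all Serpina3 genes left out. Marker lists named the classes, by thresholds set after clusters had been seen, and cells of mixed markers (160 in the titled positive library, 554 in the titled control library) stayed unnamed. Levels are class sums in CPM (counts per 1e6 UMIs), with exact Poisson intervals, and shares have Clopper-Pearson intervals. Ratios add 0.5 counts to each sum and have conditional exact binomial intervals. Genes with at least 10 UMIs over both class sums and past 4-fold were counted, and each cell was thinned to 1000 UMIs for comparison. Scripts were tested on simulated data. At these depths 10 UMIs carry an interval of 4.8 to 18.4 and 100 UMIs one of 81.4 to 122. Annotation was GENCODE, matched for 29170 of 29217 gene identifiers. The named genes were the 5 members, genes within 500 kb, the list genes and the 5 genes most like each member with at least 100 UMIs. Protein sequences were not used here. Python 3.11.15, numpy 2.4.6, scipy 1.17.1, pandas 2.3.3, scikit-learn 1.9.0 and matplotlib 3.10.9 were used. Some genes of the lists are not reported here.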

Additional observations from a re-analysis of the deposited data

How the results depend on the processing

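For the 22 pairs of member and class, 220 alternative log2 ratios were computed under alternatives listed in advance, and 216 were above 0. The 4 below 0 were 3 values of Serpina3h in monocyte or macrophage-like cells (-1.85, -1.56 and -0.27) and Serpina3f in endothelial cell-like cells after thinning, at -0.09 from 0 thinned UMIs in the titled positive library and 2 in the titled control library. Serpina3g in endothelial cell-like cells moved to 1.21 as a mean of per-cell CPM and 1.26 after thinning, and turned to -0.71 in the cluster shared by both libraries, an alternative added after seeing the data. In that cluster Serpina3h was at 2.27 and Serpina3n at 3.55. Serpina3n in endothelial cell-like cells was at 5.14 with cells named one by one from their own markers, 5.59 by per-cell CPM and 6.01 after thinning. Serpina3n in oligodendrocyte-like cells was at 9.42 after thinning and 9.71 with 15% free RNA subtracted. Its level in the titled positive library was 2240 CPM with doublets kept, 2630 CPM by own markers, and 2530 and 2810 CPM with 5% and 15% free RNA subtracted, and its share of cells 64.6% after thinning. Serpina3g in monocyte or macrophage-like cells of that library was at 307 CPM by own markers, 347 and 379 CPM with 5% and 15% free RNA subtracted, and in 22.0% of cells after thinning, and the titled control endothelial cell-like level was 93.9 CPM with 15% subtracted. By own markers the log2 ratio of oligodendrocyte-like over endothelial cell-like cells for Serpina3n in the titled positive library was 3.10, that of monocyte or macrophage-like over dendritic cell-like cells for Serpina3g 0.67, and that of endothelial cell-like over dendritic cell-like cells for Serpina3g in the titled control library 0.35. Subtracting 15% free RNA took Serpina3n in carcinoma-like cells to 0 CPM. The causes of these shifts were not tested. No paired analysis was possible because each title has 1 library, and for the same reason no replicate could be left out. Depth limits Serpina3f and Serpina3i most, with 12 and 14 UMIs in kept cells of the titled control library.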
